A study of Saccharomyces cerevisiae with 8 samples.

Results

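The 59 genes described here encode proteins listed with the mitochondrial ribosome of the budding yeast Saccharomyces cerevisiae. They are nuclear genes with MRPL, MRP, MRPS or RSM symbols, taken from a set list of systematic names, and they are 59 of the 7126 features in the deposited table. The list does not hold every gene with such a symbol: MRPL39, MRP2, MRP10, MRP13, MRP17, MRP49 and MRP35 are described with the other genes of mitochondrial translation. Of the 59, 35 are placed in the large subunit and 24 in the small subunit. The 24 include RSM22, which resembles an assembly factor. All 59 passed the filter on low values, which left 6366 features for testing. RNA was measured in 8 cultures, 2 of each of 4 genotypes: a psh1 mutant (strain GH72), a cac2 mutant (GH182), a psh1 cac2 mutant (GH194) and WT (GH69). Psh1 is a ubiquitin ligase that marks Cse4, the histone variant of centromeres, for breakdown. Cac2 belongs to the chromatin assembly factor CAF-1, a histone chaperone. All 4 genotypes carried the same induction: raffinose cultures at an OD600 of 0.1 grew for 2 h at 30 °C, and galactose at 4% then induced overproduction of Cse4 for 10 h. Every genotype is 1 strain grown as 2 cultures, so a change between genotypes is a change between these strains, and no library without Cse4 induction was analysed here. Ribosomal RNA was depleted from 1000 ng of total RNA, and strand-specific libraries were made.

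The mitochondrial ribosome translates the few messages of the mitochondrial genome, most of which encode membrane subunits of the respiratory chain. Its ribosomal RNAs and the protein Var1 are encoded in the mitochondrion, and its other proteins are made in the cytosol from nuclear genes and imported. In yeast the RNA-binding protein Puf3 binds messages of mitochondrial ribosomal proteins through a short element in the untranslated region after the stop codon, and it is known for controlling their decay and translation according to the carbon source. Galactose is a fermentable sugar that represses respiratory genes less than glucose does.

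Sequences after the stop codon are shown first because they are the feature that the genes had in common beyond their name. The motif searched was TGTANATA, on the sense strand, within 150 bases after the stop codon of the R64 (sacCer3) RefSeq annotation. It was present in 58 of the 59 genes (98.3%), in 35 of 35 large subunit genes and in 23 of 24 small subunit genes, against 754 of 6002 nuclear protein-coding genes (12.6%) searched in the same way. RSM22 was the gene without a match. There were 71 matches in all, of which 32 read TGTAAATA, 21 TGTATATA, 17 TGTACATA and 1 TGTAGATA. They began 8 to 139 bases after the stop codon, with a median of 55. A single match was found in 46 genes, 2 matches in 11 genes and 3 matches in RSM19. A match is a description of the letters and was not tested as a binding site. The windows below show genes named in the comparisons: MRPL8, MRPL7 and MRPL50 of the large subunit, MRPS17, MRPS18, RSM23, MRPS12 and MRPS35 of the small subunit, RSM10, the gene with a value below 0 in psh1, and the 3 windows of RSM19. Capitals mark the motif, and each window is 24 bases written 5′ to 3′ on the gene's strand.
MRPL8: tattccctTGTAAATAtatagatg
MRPL7: attcgtcaTGTAAATAtataaact
MRPL50: tacaatctTGTATATAggcaacat
MRPS17: ctacactcTGTAAATAtatacaac
MRPS18: tatattcgTGTAAATAattcgatt
RSM23: atttctcaTGTACATAtaaataga
MRPS12: caacctttTGTAAATAgcaatgac
MRPS35: ttattactTGTACATAaaatattc
RSM10: ttcgtactTGTAAATAaaataggt
RSM19 window 1: ggatctagTGTATATAgatttcta
RSM19 window 2: atatatcaTGTAAATAagatcaag
RSM19 window 3: actcgggcTGTATATAtatatata

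The windows lie at chrX:315717-315740 on the minus strand for MRPL8, chrIV:937567-937590 on the plus strand for MRPL7 and chrXIV:669722-669745 on the minus strand for MRPL50. For the small subunit they lie at chrXIII:636220-636243 (minus) for MRPS17, chrXIV:58863-58886 (plus) for MRPS18, chrVII:267629-267652 (minus) for RSM23, chrXIV:694272-694295 (minus) for MRPS12, chrVII:830215-830238 (plus) for MRPS35 and chrIV:540465-540488 (plus) for RSM10. The RSM19 windows are chrXIV:695027-695050, chrXIV:694999-695022 and chrXIV:694971-694994 on the minus strand. Each window follows a coding sequence without an intron, as at chrX:315759-316475 for MRPL8, chrIV:936615-937493 for MRPL7, chrXIV:669774-670193 for MRPL50, chrXIV:58155-58808 for MRPS18 and chrVII:267723-269075 for RSM23. RSM19 and MRPS12 are neighbours on chromosome XIV in the same orientation, with 229 bases between their coding sequences.

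The recovered depth was 30767522 to 34561765 reads per library, and the 59 genes had 216 to 3433 reads each in a library, so counting error reached at most 0.098 on the log2 scale for the gene with the fewest reads. PSH1 and CAC2 were near 0 where the labels name their mutation. PSH1 stood at 0 and 0.0457 RPKM in psh1 and at 0.0494 and 0.0243 RPKM in psh1 cac2, against 28.1 and 26.9 RPKM in WT. CAC2 stood at 0.0233 and 0.0438 RPKM in the cac2 libraries and at 0.150 and 0.0844 RPKM in psh1 cac2, against 19.0 and 19.5 RPKM in WT. CSE4 itself was not equal between genotypes: it stood at 10130 and 9616 RPKM in psh1, 17960 and 19970 in cac2, 23550 and 22800 in psh1 cac2, against 16620 and 14590 in WT. Its log2 change against WT was -0.66 in psh1 (limma, adjusted p = 0.00710), 0.28 in cac2 (adjusted p = 0.101) and 0.57 in psh1 cac2 (adjusted p = 0.00605). In psh1 cac2 it was 1.23 against psh1 (limma, adjusted p = 9.87e-05) and 0.29 against cac2 (adjusted p = 0.102). With loss of PSH1 the CSE4 value was thus below 0 against WT and above 0 against cac2. The part of these CSE4 differences in the results on mitochondrial ribosomal protein genes was not tested.

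At the level of RPKM, which is per length and so can be compared between genes, the 59 genes lay in a narrow band. Their means over the 8 libraries ran between 20.1 and 77.0 RPKM, a 3.83-fold range, with a median of 33.2 RPKM against 33.4 RPKM over all features tested. Large subunit genes had a median of 31.8 RPKM, with a range of 20.1 to 54.8, and small subunit genes a median of 33.6 RPKM, with a range of 22.4 to 77.0. The highest large subunit genes were MRPL23, the counterpart of bacterial L13, and MRPL16, the counterpart of bacterial L16, both with a mean of 54.8 RPKM, and MRPL36, the counterpart of bacterial L31, with 52.5 RPKM. The highest small subunit genes were RSM10, the counterpart of bacterial S10, with 77.0 RPKM, MRP51 with 75.6 RPKM and RSM18, the counterpart of bacterial S18, with 59.2 RPKM. At the low end stood MRPL4, MRPL44 and MRPL24 with 20.1, 20.4 and 20.7 RPKM in the large subunit, and MRPS5, MRPS8 and RSM22 with 22.4, 22.9 and 26.3 RPKM in the small subunit. MRPL44 is the only one of the 59 with an intron, and its RPKM had been computed over the whole 444-base span. Over its 297 coding bases its mean would be 30.5 RPKM and its rank 37 of 59.

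**Figure D1:**
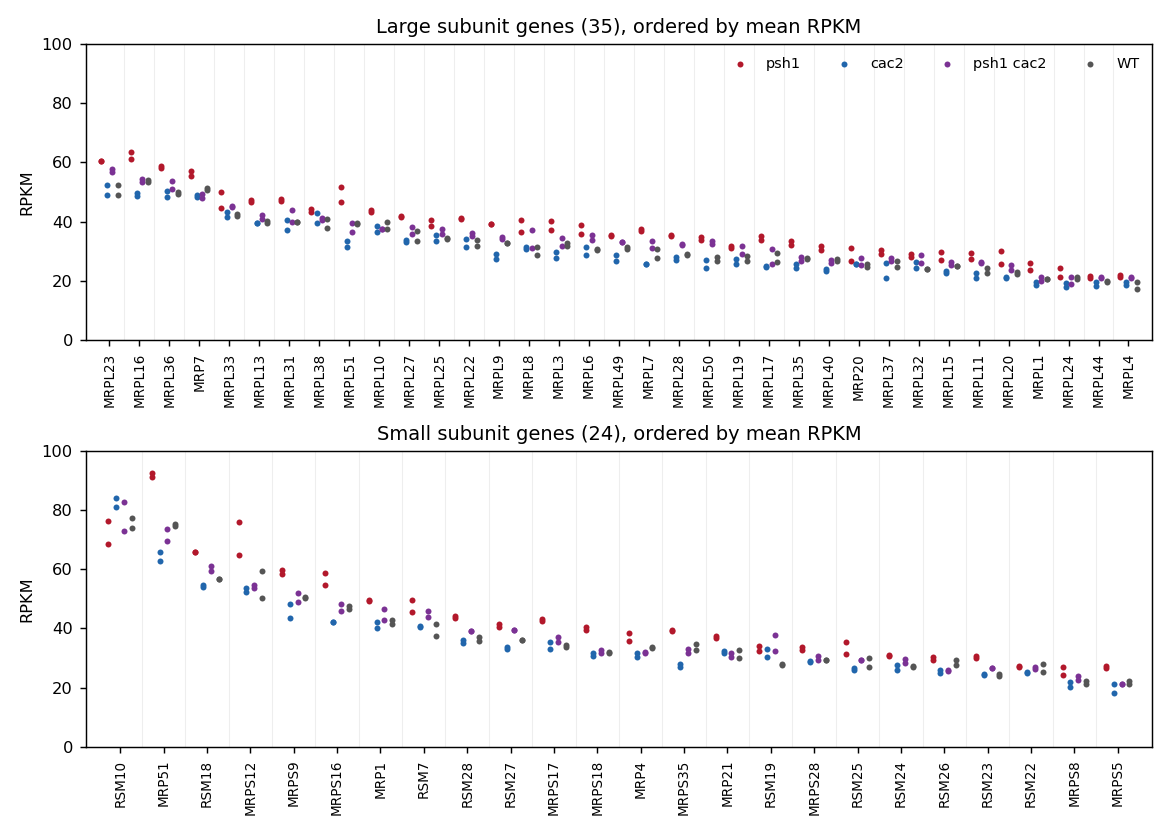
RPKM (y axis, linear) of the 35 large subunit genes (upper panel) and the 24 small subunit genes (lower panel), ordered by mean RPKM, with 1 point for each of the 2 libraries of psh1, cac2, psh1 cac2 and WT. Most genes lie between 20 and 60 RPKM, and the psh1 points lie above the WT points in 57 of the 59 columns, with RSM10 and RSM22 as the exceptions.

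Summed over the 59 genes, RPKM was 2364 and 2420 in psh1, 1942 and 1961 in cac2, 2137 and 2118 in psh1 cac2, against 2025 and 2055 in WT. Both psh1 libraries lay above all others, both cac2 libraries below all others, and the psh1 cac2 libraries between psh1 and WT without overlap. The means were 2392 ± 39.6 in psh1, 1952 ± 13.4 in cac2, 2128 ± 13.4 in psh1 cac2 and 2040 ± 21.2 in WT (SD, n = 2 each). As a share of all recovered reads, which carries no scaling beyond the total, the genes took 0.180% and 0.185% in psh1, 0.129% and 0.132% in cac2, 0.148% and 0.146% in psh1 cac2, against 0.148% and 0.152% in WT. On that scale psh1 and cac2 kept their places above and below WT, and psh1 cac2 no longer lay above WT. The large and small subunits kept nearly the same proportion throughout. The summed RPKM of the large subunit divided by that of the small subunit was 1.26 and 1.23 in psh1, 1.23 and 1.22 in cac2, 1.26 and 1.27 in psh1 cac2, against 1.23 and 1.24 in WT. The psh1 and WT ratios overlap, and both psh1 cac2 ratios lie above both WT ratios; no test was made of these ratios.

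**Figure D2:**
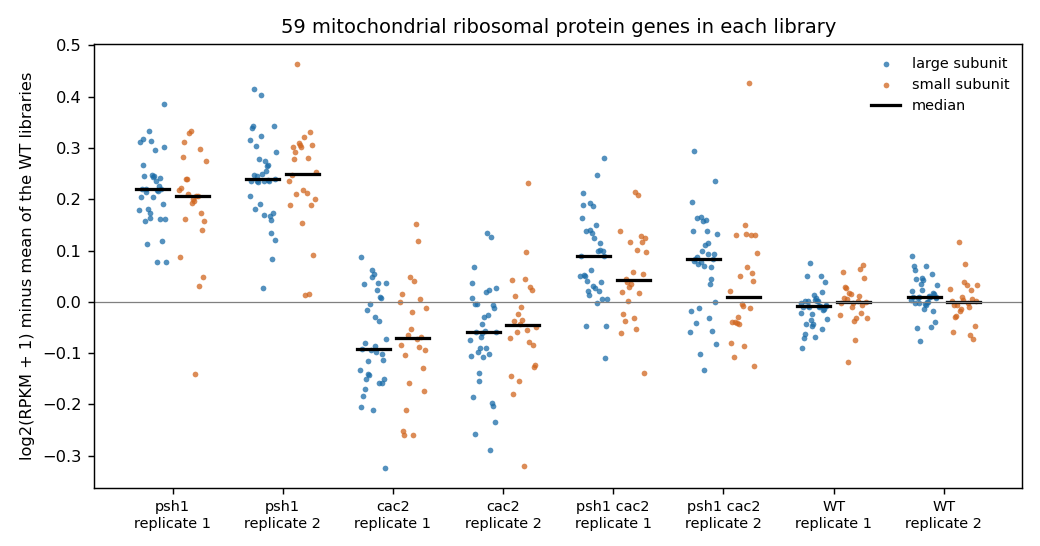
Each point is 1 of the 59 genes in 1 library, placed by its log2(RPKM + 1) minus the mean of the WT libraries (y axis), with blue points for the large subunit, orange points for the small subunit and a black bar at the median of each. Over both subunits the medians are 0.22 and 0.25 in the psh1 libraries, -0.08 and -0.06 in cac2, with 0.05 and 0.07 in psh1 cac2 (a sign that changes when scaled to total reads), and the WT libraries lie within 0.007 of 0.

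In the psh1 mutant mitochondrial ribosomal protein genes of both subunits were higher than in WT. Of the 59 genes, 30 were called higher and none lower by limma at an adjusted p under 0.05, against 7.65% of all features tested that were called higher. The median change of the 59 was 0.23 on the log2(RPKM + 1) scale, or 1.18-fold, against -0.0015 over all features tested, and 58 of the 59 values were above 0. In the large subunit 18 of 35 genes and in the small subunit 12 of 24 were called, with medians of 0.24 and 0.23. The quartiles of the 59 changes were 0.18 and 0.27. Both psh1 libraries exceeded both WT libraries in 57 of the 59 genes, against 30.0% of all features tested. In RNA from whole cultures, a change in every cell and a larger change in a fraction of the cells cannot be told apart.

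MRPL8 (YJL063C), the counterpart of bacterial L17, led the large subunit. It stood at 36.4 and 40.4 RPKM in psh1, 30.8 and 31.6 in cac2, 31.2 and 37.1 in psh1 cac2, against 28.8 and 31.4 in WT. The psh1 libraries were above the WT libraries, and the psh1 cac2 libraries were far apart from each other. Its log2 change in psh1 was 0.34 ± 0.092 (SE), with an adjusted p of 0.0469. MRPL7 (YDR237W), the counterpart of bacterial L5, a protein of the central protuberance, stood at 36.7 and 37.4 RPKM in psh1, 25.7 and 25.6 in cac2, 33.5 and 31.0 in psh1 cac2, against 27.9 and 30.8 in WT. Here every psh1 library lay above, and every cac2 library below, the WT libraries. Its log2 change in psh1 was 0.33 ± 0.066 (SE), with an adjusted p of 0.0191.

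MRPL50 (YNR022C), the counterpart of bacterial L9, stood at 33.9 and 34.9 RPKM in psh1, 24.6 and 27.1 in cac2, 33.4 and 32.4 in psh1 cac2, against 28.1 and 26.6 in WT. The psh1 and psh1 cac2 libraries formed a high group and the cac2 and WT libraries a low group that overlap each other. Its log2 change in psh1 was 0.32 ± 0.065 (SE), with an adjusted p of 0.0190. MRPL22 (YNL177C), whose counterpart in bacteria lines the exit tunnel of the ribosome, was higher by 0.32 (adjusted p = 0.0188). MRPL51 (YPR100W) and MRPL28 (YDR462W), which have no bacterial counterpart, were higher by 0.31 and 0.285 (adjusted p = 0.0271 and 0.0132). MRPL51 overlaps the annotated feature YPR099C on the other strand, so its value is uncertain where reads were counted without strand.

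Of the small subunit, MRPS18 (YNL306W), the counterpart of bacterial S11, stood at 40.5 and 39.6 RPKM in psh1, 30.7 and 31.7 in cac2, 32.7 and 31.8 in psh1 cac2, against 31.7 and 32.2 in WT. The psh1 libraries stood alone, and the other 6 libraries lay between 30.7 and 32.7 RPKM. Its log2 change in psh1 was 0.32 ± 0.052 (SE), with an adjusted p of 0.0110. MRPS17 (YMR188C), the counterpart of bacterial S17, was likewise highest in psh1, with 43.2 and 42.5 RPKM in psh1, 35.4 and 33.2 in cac2, 37.2 and 35.5 in psh1 cac2, against 34.6 and 33.9 in WT. Its log2 change in psh1 was 0.32 ± 0.058 (SE), with an adjusted p of 0.0139.

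RSM23 (YGL129C), a GTP-binding protein of the small subunit that has no bacterial counterpart and is related to human DAP3, stood at 30.0 and 30.7 RPKM in psh1, 24.3 and 24.7 in cac2, 26.5 and 26.6 in psh1 cac2, against 23.8 and 24.6 in WT. Its replicates agreed closely, and psh1 cac2 lay between psh1 and WT. The log2 change of RSM23 in psh1 was 0.31 ± 0.050 (SE), with an adjusted p of 0.0108, the lowest of the 59. MRPS5 (YBR251W), the counterpart of bacterial S5, was higher by 0.30 (adjusted p = 0.0396), MRP51 (YPL118W) by 0.29 (adjusted p = 0.0213) and RSM28 (YDR494W) by 0.26 (adjusted p = 0.0195). The largest value of all belonged to MRPS12 (YNR036C), the counterpart of bacterial S12, a protein of the decoding site. It stood at 64.8 and 75.8 RPKM in psh1, 52.2 and 53.8 in cac2, 54.7 and 53.6 in psh1 cac2, against 50.4 and 59.4 in WT. Its replicates were wide apart in psh1 and in WT, and its log2 difference of 0.35 ± 0.098 (SE) had an adjusted p of 0.0501, just above the threshold of 0.05.

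A few genes had values near or below 0. RSM10 (YDR041W) stood at 68.4 and 76.2 RPKM in psh1, 83.9 and 80.8 in cac2, 72.7 and 82.8 in psh1 cac2, against 73.8 and 77.2 in WT. It was the only one of the 59 with a value below 0 in psh1 (-0.06, adjusted p = 0.638), and its psh1 and WT libraries overlap. RSM22 (YKL155C), a methyltransferase-like protein related to an assembly factor of the small subunit in mammals, stood at 27.2 and 26.9 RPKM in psh1 and at 27.8 and 25.4 RPKM in WT, a log2 difference of 0.02 with a 95% interval of -0.11 to 0.16 (adjusted p = 0.821). RSM22 is also the gene without TGTANATA after its stop codon. RSM10 above and RSM26 and MRPL44 below each have 1 match, and the part of the motif in these values was not tested. RSM26 (YJR101W), which has no bacterial counterpart, differed by 0.07 (adjusted p = 0.436), and in the large subunit MRPL44 (YMR225C) by 0.10 (adjusted p = 0.248).

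**Figure D3:**
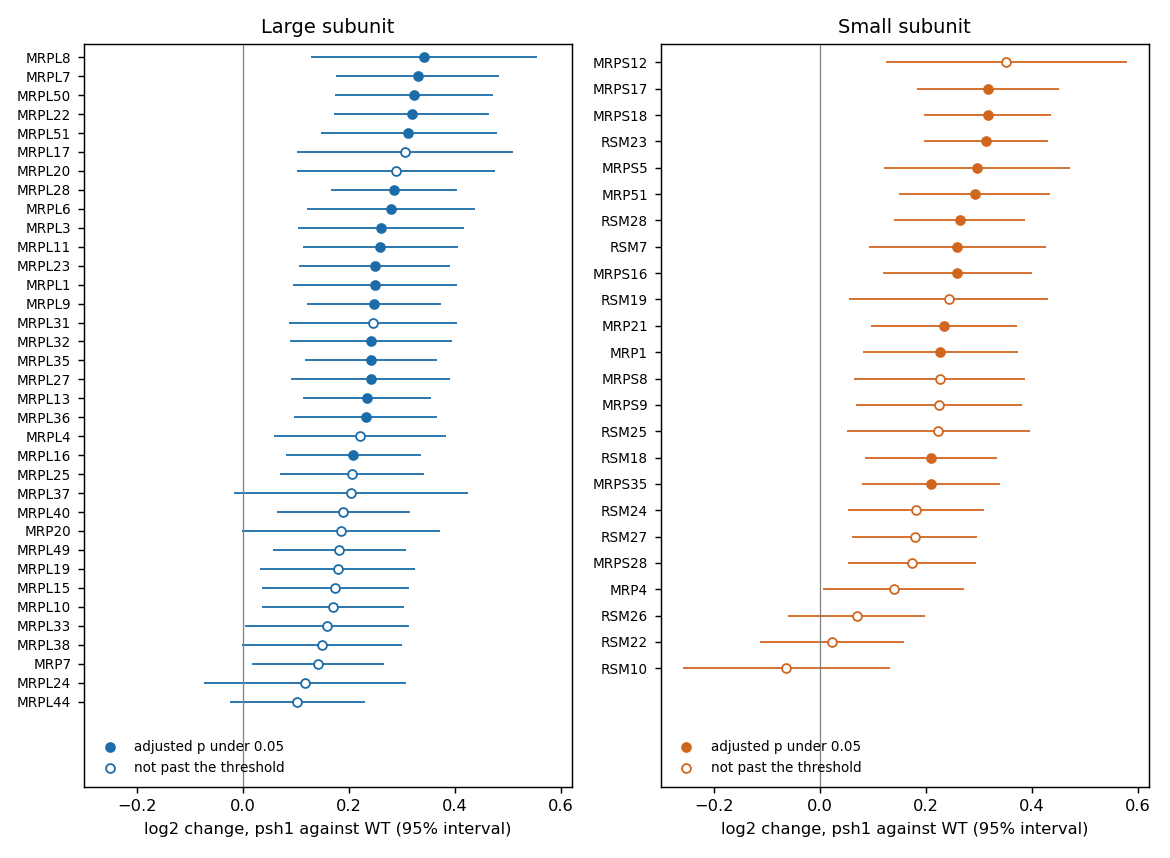
Log2 change of log2(RPKM + 1) in psh1 against WT (x axis) for each of the 35 large and 24 small subunit genes, with 95% intervals from limma, where filled points have an adjusted p under 0.05 and open points do not. All large subunit values are above 0, and of the small subunit RSM10 is at -0.06 and RSM22 at 0.02.

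The number of calls was lower when any 1 of the 8 libraries was left out. Such a fit has fewer residual degrees of freedom, and where a psh1 or WT library is left out, that genotype has 1 library, which is assumed to vary like the other genotypes. Without WT replicate 1 or without psh1 replicate 2, limma called none of the 59 genes, although 42 and 39 of them had an unadjusted p under 0.05 (51 with all libraries), and over all features the higher calls dropped to 95 and 37, against 487 with all libraries. In the other fits without 1 library the higher calls over all features were also below 487. The median change of the 59 stayed between 0.22 and 0.25 throughout. Scaled to the total of recovered reads, 49 of the 59 genes were called higher, against 13.1% of all features.

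Loss of PSH1 was also measured in cells without CAC2, by psh1 cac2 against cac2. This comparison shares no library with psh1 against WT. In both, however, the spread of each gene that limma used was estimated from all 8 libraries. There none of the 59 genes was called by limma, against 0.895% of all features tested. An unadjusted p under 0.05 was reached by 22 of them and by 1515 of all 6366 features tested. The median was 0.13, against -0.0059 over all features tested, and 55 of the 59 values were above 0. Both psh1 cac2 libraries exceeded both cac2 libraries in 45 of the 59 genes, against 1778 of all 6366 features tested (27.9%). Both lay below both cac2 libraries in 0 of the 59, against 1846 of all features (29.0%). The large subunit had a median of 0.14 and the small subunit one of 0.11. Of the 30 genes called higher in psh1 against WT, 29 had a value above 0 here. Scaled to the total of recovered reads, 6 of the 59 were called higher, against 1.67% of all features.

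The highest value was that of MRPL50, whose libraries are given above: its log2 difference was 0.34 ± 0.065 (SE), with an adjusted p of 0.0627. MRPL7 followed with 0.32 (adjusted p = 0.0729). In the small subunit RSM27 (YGR215W), which has no bacterial counterpart, stood highest, with 39.4 and 39.6 RPKM in psh1 cac2, against 33.7 and 33.0 in cac2. The groups did not overlap, and its log2 difference was 0.24 (adjusted p = 0.0729). At the low end stood RSM10 with -0.085 (adjusted p = 0.576) and, in the large subunit, MRPL38, the counterpart of bacterial L14, with -0.01 (adjusted p = 0.920). MRP21 (YBL090W), the counterpart of bacterial S21, which was called higher in psh1 against WT (0.23, adjusted p = 0.0384), had 31.8 and 30.5 RPKM in psh1 cac2, against 31.7 and 32.3 RPKM in cac2.

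**Figure D4:**
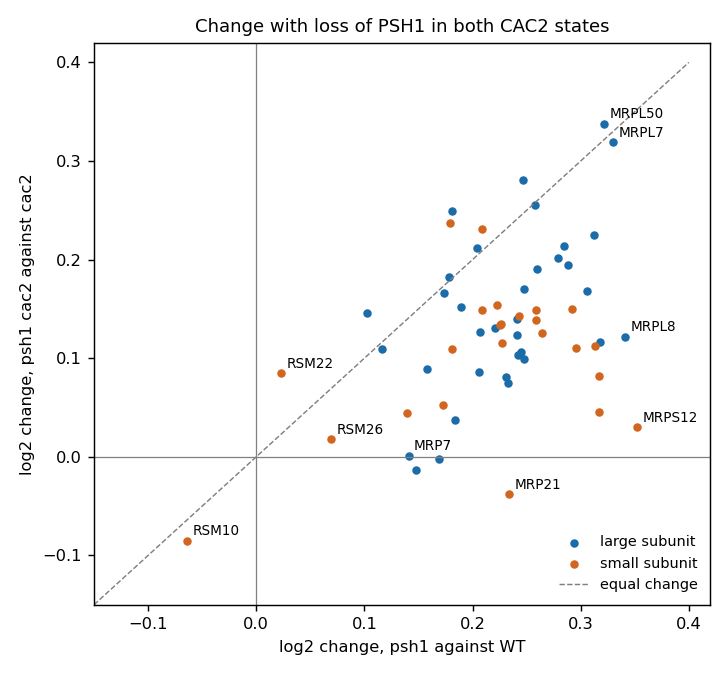
Log2 change in psh1 against WT (x axis) and in psh1 cac2 against cac2 (y axis) for the 59 genes, in blue for the large and orange for the small subunit, with a dashed line at equal change. Most points lie right of 0 and above 0 but under the line, MRPL50 and MRPL7 lie on or near it at 0.32 to 0.34, and RSM10 is below 0 on both axes.

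In the cac2 mutant few of these genes passed the test against WT. A single gene was called, MRPS35, which was lower, against 1.51% of all features tested that were called lower. The median of the 59 was -0.06, against -0.0016 over all features tested. An unadjusted p under 0.05 was reached by 11 of the 59 genes and by 1434 of all 6366 features tested. Both cac2 libraries lay below both WT libraries in 28 of the 59 genes, against 1684 of all 6366 features tested (26.5%). Both lay above both WT libraries in 3 of the 59, against 1626 of all features (25.5%). MRPS35 (YGR165W), a small subunit protein with no bacterial counterpart, stood at 28.0 and 26.9 RPKM in cac2, 39.0 and 39.5 in psh1, 33.0 and 31.8 in psh1 cac2, against 32.9 and 34.7 in WT. The cac2 libraries were the lowest and the psh1 libraries the highest, with no overlap with WT in either. Its log2 change in cac2 was -0.29 ± 0.056 (SE), with an adjusted p of 0.0305, and the call was lost whenever any 1 of the 8 libraries was left out. MRPL51 was the lowest large subunit gene with -0.28 (adjusted p = 0.0784), and RSM19 the highest of all with 0.175 (adjusted p = 0.253).

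The count in cac2 depends on the scaling. The authors' RPKM carry a scaling beyond the total reads, and scaling to the total of recovered reads moved the median of all features in cac2 against WT to -0.13 and that of the 59 genes to -0.19. With that scaling 23 of the 59 genes were called lower, against 18.7% of all features tested. Relative to all features the 59 genes stood at -0.06 under both scalings.

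The psh1 cac2 mutant was compared with WT in the same way. None of the 59 genes was called by limma, against 6.05% of all features tested. An unadjusted p under 0.05 was reached by 12 of them and by 1578 of all 6366 features tested. The median was 0.07, against -0.0080 over all features, but it was -0.0078 when scaled to the total of recovered reads, so its sign depends on the scaling. Relative to all features it was 0.076 with the deposited values and 0.075 with the total. Both psh1 cac2 libraries exceeded both WT libraries in 28 of the 59 genes, against 1765 of all 6366 features tested (27.7%). Both lay below both WT libraries in 5 of the 59, against 1747 of all features (27.4%). RSM19 (YNR037C), the counterpart of bacterial S19, had the highest value. It stood at 32.4 and 37.8 RPKM in psh1 cac2, 32.3 and 34.1 in psh1, and 30.4 and 32.9 in cac2, against 28.1 and 27.7 in WT. All 6 mutant libraries lay above both WT libraries, and the log2 difference in psh1 cac2 was 0.32 ± 0.081 (SE), with an adjusted p of 0.0649. Its neighbour MRPS12 had -0.01 in the same comparison (adjusted p = 0.943). MRPL50 was the highest large subunit gene with 0.26 (adjusted p = 0.0599), MRP7, the counterpart of bacterial L27, the lowest with -0.065 (adjusted p = 0.487), and RSM26 the lowest of the small subunit with -0.13 (adjusted p = 0.194).

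Loss of CAC2 in cells without PSH1, measured by psh1 cac2 against psh1, went with lower levels in part of the genes. Of the 59, 21 were called lower and none higher by limma, against 12.2% of all features tested that were called lower. The called genes were 9 of 35 in the large subunit and 12 of 24 in the small subunit, and the difference between the subunits was not tested. The median was -0.17, against -0.018 over all features tested, and 57 of the 59 values were below 0. Both psh1 cac2 libraries lay below both psh1 libraries in 48 of the 59 genes, against 2275 of all 6366 features tested (35.7%). This comparison shares the psh1 libraries with psh1 against WT.

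MRPL51 stood at 36.5 and 39.5 RPKM in psh1 cac2, against 51.9 and 46.8 in psh1, and neither the cac2 nor the WT libraries exceeded 39.7 RPKM. MRP51, the counterpart of bacterial S1 and known for its part in translation of several mitochondrial messages, stood at 73.6 and 69.4 RPKM in psh1 cac2, 91.2 and 92.6 in psh1 and 62.7 and 66.0 in cac2, with 75.2 and 74.5 in WT. In both genes the psh1 libraries stood apart above every other library. The log2 changes in psh1 cac2 against psh1 were -0.37 ± 0.072 for MRPL51 (SE, adjusted p = 0.0112) and -0.36 ± 0.062 for MRP51 (SE, adjusted p = 0.00684). MRPS12 fell by 0.37 (adjusted p = 0.0336) and MRPS5 by 0.33 (adjusted p = 0.0196). In the large subunit MRPL1, the counterpart of bacterial L1 in the stalk, fell by 0.25 (adjusted p = 0.0328), as did MRPL35, which has no bacterial counterpart, by 0.25 (adjusted p = 0.0163). The highest values were those of RSM10 with 0.10 (adjusted p = 0.404) and MRPL44 with -0.01 (adjusted p = 0.909). Without 1 psh1 or psh1 cac2 library far fewer of the 59 genes were called, and fewer of all features. The count of 21 therefore depends on the libraries fitted. Whichever library was left out, the median of the 59 lay between -0.181 and -0.159. Scaling to the total of recovered reads shifted all features to -0.14 and the 59 genes to -0.30 with 48 called lower, against 34.5% of all features, and relative to all features the genes stood at -0.15 under both scalings.

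The interaction asks whether both mutations together gave another log2 change than their single effects added up. None of the 59 genes was called by limma, against 0.0157% of all features tested. An unadjusted p under 0.05 was reached by 5, all in the small subunit, and by 866 of all 6366 features tested. The median was -0.09, against -0.0084 over all features, and 50 values were below 0. The lowest were MRPS12 with -0.32 (95% interval -0.64 to -0.001, adjusted p = 0.366) in the small subunit and MRPL8 with -0.22 (95% interval -0.52 to 0.08, adjusted p = 0.483) in the large. MRPL49, the counterpart of bacterial L21, was the highest with 0.07 (adjusted p = 0.731) and RSM22 the highest of the small subunit with 0.06 (adjusted p = 0.773).

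Other genes of mitochondrial translation were compared by list. A list of 19 more proteins of the mitochondrial ribosome, outside the 59, had a median of 0.22 in psh1 against WT. Of these, 8 were called higher and none lower, against 7.65% of all features tested that were called higher. The called gene of largest change was MNP1, a homologue of bacterial L7/L12 of the stalk, with 60.3 and 61.8 RPKM in psh1, against 47.4 and 44.9 in WT, a log2 change of 0.40 (adjusted p = 0.0108). In psh1 cac2 against WT 1 of the 19 was called, MRP35, which was higher by 0.25 (limma, adjusted p = 0.0461), against 3.86% of all features called higher. In psh1 cac2 against psh1 3 of the 19 were called lower, against 12.2% of all features. Of 8 mitochondrial translation factors 3 were called higher in psh1 and none lower, with a median of 0.14. TUF1, the mitochondrial elongation factor Tu, stood at 115 and 127 RPKM in psh1, 78.3 and 70.1 in cac2, 81.4 and 76.4 in psh1 cac2, against 84.7 and 88.0 in WT. Both psh1 libraries stood far above the rest, with a log2 change of 0.48 (adjusted p = 0.0113).

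Of 13 translational activators of single mitochondrial messages 2 were called higher in psh1, against 7.65% of all features tested. The list median was 0.10, and MSS51, which acts on the COX1 message, changed most (0.31, limma, adjusted p = 0.0213). None of 13 mitochondrial tRNA synthetases and none of 7 assembly factors of the mitochondrial ribosome was called by limma in psh1. Their medians were 0.07 and 0.04. An unadjusted p under 0.05 was reached by 3 of the 13 and 2 of the 7, and by 2028 of all 6366 features tested. The ribosome's 3 own mitochondrial genes were not called either, and none had an unadjusted p under 0.05 in psh1. VAR1 stood at 4.04 and 3.75 RPKM in psh1, 2.93 and 2.75 in cac2, 4.11 and 4.04 in psh1 cac2, against 4.00 and 3.78 in WT. Its cac2 libraries were the lowest, and its log2 difference in cac2 was -0.35 (adjusted p = 0.107), while in psh1 it was 0.003 (adjusted p = 0.990). The ribosomal RNA genes of the mitochondrion were read in libraries depleted of ribosomal RNA, and their values are not used as levels.

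Messages of known regulators were listed as well. PUF3 stood at 40.8 and 40.6 RPKM in psh1, 44.6 and 41.9 in cac2, 38.9 and 39.4 in psh1 cac2, against 42.5 and 40.8 in WT, and it was called in no comparison. HAP2, HAP3, HAP4 and HAP5 encode the complex that activates respiratory genes through CCAAT elements. None of them was called by limma against WT in any mutant. An unadjusted p under 0.05 was reached by 0 of the 5 regulators in psh1, 1 in cac2 and 0 in psh1 cac2. Over all 6366 features tested it was reached by 2028, 1434 and 1578 in the same order. The log2 differences in psh1 were 0.15 for HAP2, 0.16 for HAP3, 0.15 for HAP4 and 0.11 for HAP5 (limma, adjusted p = 0.300, 0.173, 0.496 and 0.245). HAP4, the regulated activating subunit, was lower in psh1 cac2 than in psh1, with 71.6 and 77.3 RPKM in psh1 cac2, against 102 and 104 in psh1 (-0.46, adjusted p = 0.0456).

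Other large groups of nuclear genes were measured beside them. The nuclear genes of the respiratory chain had a median of 0.40 in psh1 against WT, with 31 of 34 called higher. The 138 cytoplasmic ribosomal protein genes had a median of 0.31, with 27 called higher, against 7.65% of all features tested. In cac2 against WT the cytoplasmic ribosomal protein genes had a median of -0.34 with 9 of 138 called lower, against 1.51% of all features tested. The respiratory chain had a median of -0.10 with none called by limma. An unadjusted p under 0.05 was reached by 4 of its 34 genes and by 1434 of all 6366 features tested. When psh1 cac2 was set against psh1, 23 of the 34 respiratory chain genes were called lower, with a median of -0.27. Of the 138 cytoplasmic ribosomal protein genes 93 were called lower, with a median of -0.41, against 12.2% of all features tested. The part of these groups in the result on mitochondrial ribosomal protein genes was not tested.

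**Figure D5:**
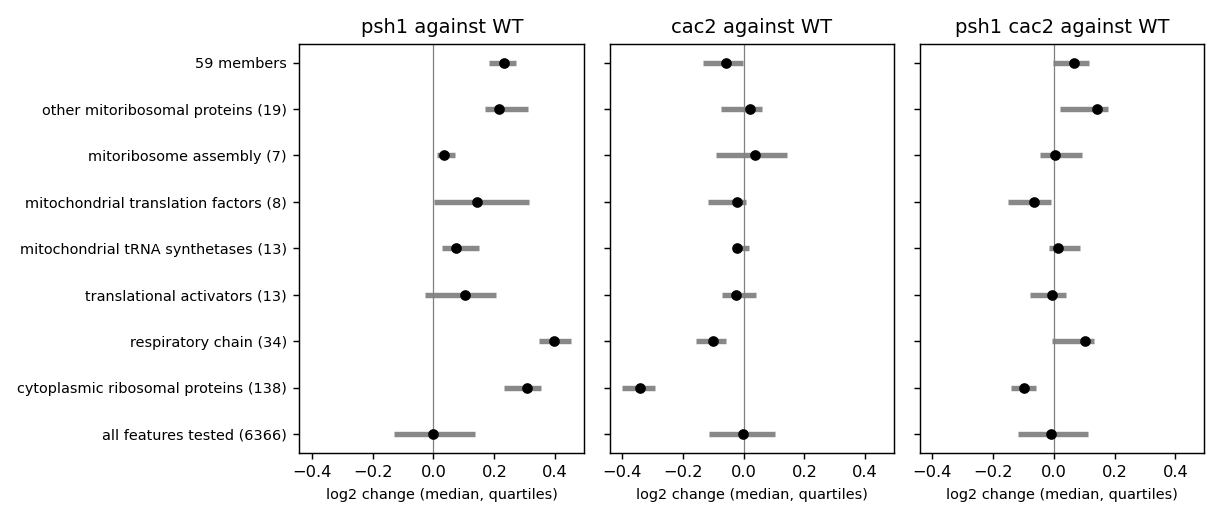
Median (point) and quartiles (bar) of the log2 change for the 59 genes, the other lists with their number of genes, and all 6366 features tested, in psh1, cac2 and psh1 cac2 against WT (x axes). In psh1 the 59 genes (0.23) and the other mitochondrial ribosomal proteins (0.22) lie between the respiratory chain (0.40) and the tRNA synthetases (0.07); the psh1 cac2 median of the 59 (0.07) is -0.0078 when scaled to total reads.

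The TGTANATA match was counted in the same lists. All 19 other mitochondrial ribosomal proteins and all 13 mitochondrial tRNA synthetases had a match, as did 6 of 8 translation factors, 9 of 13 activators and 5 of 7 assembly factors. The respiratory chain had one in 4 of 34 genes (11.8%) and the cytoplasmic ribosomal proteins in 4 of 138 (2.9%), both at or under the 12.6% of all genes. Within the 59 genes, 23 of the 46 with 1 match and 7 of the 12 with more were called higher in psh1. Of all features tested 7.65% were called higher there. The medians of the 46 and the 12 genes were 0.23 and 0.24. The part of the motif in these changes was not tested.

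Promoter letters were counted between 250 bases before and 50 bases after the start codon, on both strands, which is a window of 300 bases that includes transcribed sequence. CCAAT was present in 24 of the 59 genes (40.7%), against 43.3% of all nuclear protein-coding genes and 29 of 34 respiratory chain genes (85.3%). TATAAA was present in 16 of 35 large subunit genes (45.7%) and in 3 of 24 small subunit genes (12.5%), against 45.2% of all genes. TTACCCG, the core of the Reb1 motif, was present in 8 genes (13.6%), against 7.08% of all genes, AAAATTTT in 3 (5.08% against 9.03%) and GATGAG in 10 (16.9% against 20.4%). In psh1 against WT 10 of 19 genes with TATAAA and 20 of 40 without it were called higher. With CCAAT 13 of 24 and without it 17 of 35 were called higher, against 7.65% of all features tested. The part of these letters in the changes was not tested. AAAATTTT reads the same on both strands, so each of its matches was counted once.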

How the data were processed

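The authors deposited 1 table of RPKM values, read counts divided by feature length and library size, for 7126 features in 8 libraries. Per the submitters' processing notes, the build is sacCer3 and the tools include TopHat2 2.0.13, bcl2fastq 2.18 and edgeR 3.14.0. The role of each tool, the counting method, strand setting and annotation: not given in the sources used here. Reads were recovered from the RPKM steps (99.808% of values whole within 0.01 reads), and the library size the authors had divided by was 1.06 and 1.07 times the recovered total in psh1, 0.932 and 0.944 in cac2, 0.971 and 0.975 in psh1 cac2, and 1.02 and 1.04 in WT.

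Values of log2(RPKM + 1) of the 6366 features whose mean RPKM reached 1 entered a limma 3.58.1 fit (R 4.3.3) of the 8 libraries, with a term for genotype and an intensity trend (4 residual and 3.85 prior degrees of freedom). Two-sided p-values were adjusted over all features of a comparison (Benjamini-Hochberg), with a threshold of 0.05. The script was tested on simulated data. With 2 libraries a genotype no test for outlying libraries was made, and p-values measure the spread between cultures of 1 strain. Counting errors cover counting alone.

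The genes and lists were chosen with earlier results of these data known. Named genes are, in each subunit, the 6 of largest absolute change among those called against WT, the 3 in each other comparison, the highest and lowest value of each comparison, and the 3 highest and 3 lowest levels; the called gene of largest change stands for each list. MRP21 was named after its values were seen. Motifs were searched in R64 RefSeq sequence, the same build, with Python 3.11.15. Of the 59 genes 3 overlap another annotated gene (MRPL19, MRPL51 and MRP4); without them 29 of 56 were called higher in psh1. Alternatives tried were the pseudocount, filters, scalings, the libraries in the fit, a replicate block and leaving out each library.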

Additional observations from a re-analysis of the deposited data

How the results depend on the processing

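The psh1 against WT result kept its direction under every alternative run, and its count of called genes did not keep its size. The 30 calls became 49 with scaling to the total of recovered reads (median 0.287, 13.1% of all features called higher) and 8 when only the psh1 and WT libraries were fitted, and leaving out 1 library gave 0 to 18 calls with a median of 0.216 to 0.245. In cac2 against WT the 1 call became 23 with total scaling (median -0.185, 18.7% of all features called lower) and 0 in the fit of both groups only (7 genes had an unadjusted p under 0.05), and leaving out 1 library gave 0 calls each time with medians of -0.0841 to -0.0573. In psh1 cac2 against WT the median was -0.00775 with total scaling, 0.0869 with quantile normalization and 0.0546 to 0.0716 without 1 library, with 0 calls each time. In psh1 cac2 against cac2 total scaling gave 6 calls and a median of 0.179, quantile normalization a median of 0.146, and leaving out 1 library 0 calls and 0.114 to 0.141. In psh1 cac2 against psh1 the 21 calls became 48 with total scaling (median -0.298), 13 with quantile normalization (median -0.142), 12 in the fit of both groups and 1 to 19 without 1 library (medians -0.181 to -0.159). The interaction median was -0.0685 with quantile normalization and -0.119 to -0.0772 without 1 library, with 0 calls each time. Over all features total scaling changed the calls in psh1 against WT to 831 higher and 331 lower (487 and 439 as deposited), in cac2 against WT to 163 and 1189 (175 and 96), in psh1 cac2 against WT to 179 and 478 (246 and 139), in psh1 cac2 against cac2 to 106 and 34 (25 and 32) and in psh1 cac2 against psh1 to 427 and 2194 (716 and 777). A replicate block raised the counts to 46 in psh1 against WT, 5 in cac2 against WT, 2 in psh1 cac2 against WT, 8 in psh1 cac2 against cac2 and 28 in psh1 cac2 against psh1, with 0 in the interaction. In the same order, calls over all 6366 features rose to 1625, 821, 984, 520, 2187 and 130. Without the block they were 926, 271, 385, 57, 1493 and 1. The labels do not say that equal replicate numbers pair the cultures, and of the 6 correlations of replicate differences between genotypes 4 were 0.309 to 0.443 and the other two 0.038 and 0.054, so the fit of the report has no block. Each named gene was followed under each alternative in the comparison it was named for, whether called in the main fit or not. Of these values 487 kept their side of the threshold, 82 lost the call, 12 gained it and 0 reversed sign with a call. Values called in neither fit count among the 487, also where their sign differed. The cause of these changes was not tested. Pseudocount and filters moved no count among the 59 genes by more than 1.5 times, but over all features the 57 calls in psh1 cac2 against cac2 became 2 with no filter on low values. Changes under about 0.1 on the log2 scale are within the counting error of the genes with the fewest reads.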

Other observations

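Proteins of the mitochondrial ribosome fall into those with a bacterial counterpart and those found in mitochondria alone. RSM22, which resembles an assembly factor, was placed in neither class. Of the 37 with a counterpart 20 and of the 21 without one 10 were called higher in psh1 against WT, with medians of 0.23 each. Of all features tested 7.65% were called higher there. In psh1 cac2 against cac2 the genes without a counterpart had a median of 0.15 with 21 of 21 values above 0, and those with one a median of 0.12 with 33 of 37 above 0. Neither difference between the classes was tested. The 59 genes lie on 14 chromosomes, 33 on the plus and 26 on the minus strand, and 39 have an upstream neighbour in divergent orientation. Across the 59 genes the change in psh1 and the mean RPKM had a rank correlation of 0.09, over genes measured in the same 8 libraries. Their proteins run between 86 and 628 codons.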
